A study of Mus musculus with 9 samples.

Results

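Glycolysis is carried by a chain of enzymes from hexokinase to lactate dehydrogenase. Here 10 genes of this chain were described (Hk1, Hk2, Gpi1, Pfkl, Aldoa, Tpi1, Pgk1, Eno1, Pkm and Ldha), chosen by gene symbol among 52550 listed genes, and all 10 were found. The cells were splenic plasmacytoid DCs (pDCs), sorted as CD11c-int SiglecH+ PDCA1+ cells from C57BL/6 mice and exposed to R848, which activates TLR7 and TLR8, at 10 μg/mL over 12 hours. There were 9 samples, 3 from each genotype: G/G (WT), G/A (heterozygous Ncf1-KI) and A/A (homozygous Ncf1-KI). In the KI mice CRISPR/Cas9 editing put a histidine in place of an arginine of NCF1, a subunit of the NOX2 oxidase. All samples received R848, so none was an unstimulated control. The only library read was A/A replicate 1; the remaining 8 were not analysed here. No difference between genotypes was therefore computed, no value below has a replicate error, and no test was made.

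Glycolysis splits glucose into pyruvate in the cytosol. A preparatory phase spends ATP to phosphorylate and cleave the hexose, a payoff phase makes ATP and NADH from the trioses, and lactate dehydrogenase then returns NAD+ by reducing pyruvate to lactate. Several steps are served by isozymes of separate genes with tissue-specific use, and activated dendritic cells are known for raising glycolytic flux. The study tested a glycolysis inhibitor on pDC cytokine production, which is the interest of these genes in this library.

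The deposited value of each gene was a whole number divided by 1 factor. These whole numbers were recovered and taken as reads, 31408298 over 17664 genes. Whether they count single reads, read pairs or rounded estimates is not given in the sources used here, and all intervals treat them as counted reads. A level is given as CPM, reads per 1000000 of that total, with a Wilson 95% CI that covers counting error only, since reads amplified by PCR and carrying no molecular identifier can stem from 1 molecule. To compare genes, CPM was divided by the length of all annotated exons of the gene in kb. A count of 0 allows up to 3 reads, or 0.0955 CPM. In the same library all 11 pDC markers had reads, with a median of 543 CPM. Markers of other cells were not all at 0, and of the conventional DC markers Fscn1 (428 CPM) stood above Siglech (374 CPM). Medians over 7 markers were 2.36 CPM for conventional DCs, 11.2 CPM for macrophages, 1.85 CPM for neutrophils and 1.31 CPM for B cells. They were 0 for T cells and for erythroid cells and platelets. Fscn1 alone made most of the conventional DC sum given next. The sums over 7 markers each were 613 CPM for conventional DCs (6 of 7 with reads, Zbtb46 at 106 CPM, Clec9a at 73.9 CPM and Cd209a at 0), 123 CPM for macrophages (6 of 7, Marco at 0), 35.6 CPM for neutrophils (4 of 7, Ly6g, Mpo and Elane at 0), 11.5 CPM for B cells (5 of 7, Pax5 and Cr2 at 0), 3.34 CPM for erythroid cells and platelets (3 of 7) and 2.13 CPM for T cells (3 of 7, Cd3e, Cd3d, Cd3g and Bcl11b at 0). The part of such cells in the values below was not tested, and in a bulk sample fewer cells of a type and less RNA per cell cannot be told apart. The library went against its description in one respect. The study's methods state female mice aged 10 to 12 weeks, but Y-linked Ddx3y had 3215 reads and Xist had 0. As no other library was analysed here, no value below can be given without this library.

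The 10 genes together held 63070 reads, 2008 CPM or 0.201% of all reads (95% CI, 0.199% to 0.202%). Most of this came from few genes. Aldoa and Pkm held 61.5% of these reads, and Aldoa, Pkm, Eno1 and Ldha held 83.2%. The median level of the 10 genes was 80.6 CPM, against 6.34 CPM over all genes with reads, and their median percentile among genes with reads was 87.3. On this scale 8 of the 10 stood above percentile 80, and the exceptions were Tpi1 (73.5) and Hk2 (63.9). Per kb of exon, the median level was 20.9 CPM per kb against 1.90 over all genes with reads, and 6 of the 10 stood above percentile 80.

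**Figure D1:**
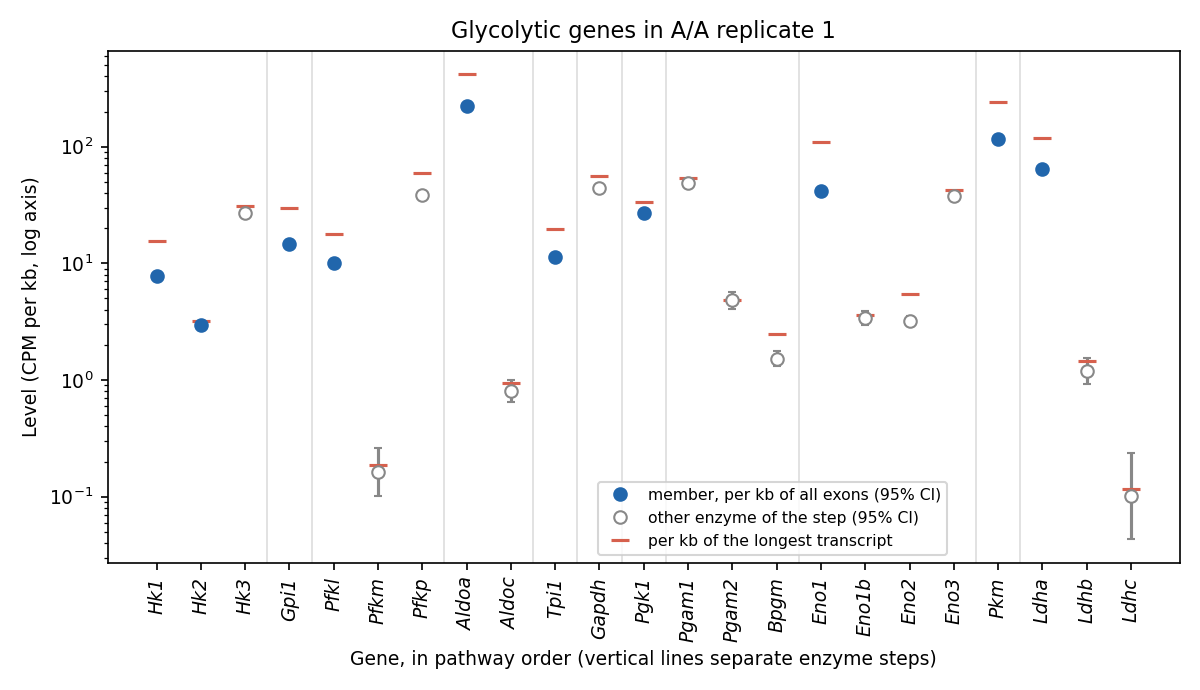
Level of each glycolytic gene with reads in A/A replicate 1, in pathway order, on a log axis of CPM per kb. Circles use all annotated exons with Wilson 95% CIs (counting error only), filled for the 10 genes described and open for other enzymes of the same step; dashes use the longest transcript. Aldoa is the highest point at 223 CPM per kb, and Hk2 is the lowest filled point at 2.93.

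Hexokinases trap glucose in the cell by phosphorylating it. Hk1 (chr10:62268855-62379908, minus strand of GRCm38, as all coordinates here) had 2071 reads, 65.9 CPM (95% CI, 63.2 to 68.8). Hk2 (chr6:82725025-82774454, minus strand), the isozyme often raised in proliferating and activated cells, had 550 reads, 17.5 CPM (95% CI, 16.1 to 19.0). Hk1 was 2.63-fold higher than Hk2 per kb (95% counting interval, 2.40 to 2.89). With the longest transcript or the transcript with the longest coding sequence, Hk1 was 4.85-fold or 5.39-fold higher than Hk2. These 2 hexokinases were the lowest of the 10 genes per kb. Hk3, the hexokinase typical of myeloid cells and not among the 10, had more reads than either, with 3131 reads and 99.7 CPM. Hk3 held 54.4% of the reads of the step (95% CI, 53.1% to 55.7%, Clopper-Pearson), Hk1 36.0% and Hk2 9.56%. Per kb, Hk3 was 3.50-fold higher than Hk1 (95% counting interval, 3.31 to 3.70). With the longest transcript or the transcript with the longest coding sequence, Hk3 was 2.01-fold or 1.81-fold higher than Hk1. The macrophage and neutrophil markers given above summed to 123 and 35.6 CPM in the same library, and their part in the Hk3 level was not tested. Hkdc1 was listed at 0.

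Gpi1 interconverts glucose 6-phosphate and fructose 6-phosphate and has no isozyme. Gpi1 (chr7:34201330-34230336, minus strand) had 2961 reads, 94.3 CPM (95% CI, 90.9 to 97.7) and 14.6 CPM per kb. Exons of genes on the opposite strand covered 11.5% of its exon bases, the largest such share among the 10 genes. The opposite-strand gene Gm26762, which shares 550 of the 50-base windows of Gpi1, had 69 reads. How strand was counted is not given in the sources used here.

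Phosphofructokinase commits hexose to glycolysis. Pfkl (chr10:77986947-78010083, minus strand), the liver-type subunit, had 2105 reads, 67.0 CPM (95% CI, 64.2 to 69.9) and 10.0 CPM per kb. The platelet-type subunit Pfkp had far more, with 16056 reads and 511 CPM (95% CI, 503 to 519). Pfkp held 88.3% of the reads of this step (95% CI, 87.8% to 88.8%), Pfkl held 11.6%, and the muscle-type Pfkm had 17 reads. The genes differ in length, as the annotated exons of Pfkp span 13401 bases and those of Pfkl 6675. Pfkp was 7.63-fold higher than Pfkl in reads and 3.80-fold higher per kb (95% counting interval, 3.63 to 3.98), and 3.28-fold or 6.86-fold higher with the length of the longest transcript or of the transcript with the longest coding sequence.

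Aldolase splits the hexose bisphosphate into the triose phosphates. Aldoa (chr7:126795234-126808905, minus strand) had 20394 reads, 649 CPM (95% CI, 640 to 658), and was the highest of the 10 genes at 223 CPM per kb (95% CI, 220 to 226). It held 99.6% of the reads of its step. Aldoc had 82 reads. A second listed gene also named Aldoa, ENSMUSG00000114515.1 at chr7:126800790-126809108, had 0 reads and lies almost wholly inside the span listed for the Aldoa gene that was used, ENSMUSG00000030695.15. Aldoart1, a relative of Aldoa known from testis, had 5 reads. The 60-base stretches below, shown because they let reads of the 2 genes be told apart, run 5′ to 3′ in the direction of transcription, and capitals mark the 6 bases at which they differ. In Aldoa the stretch is coding bases 130 to 189, across the junction of exons 2 and 3 (chr7:126797729-126797985, minus strand, intron included), and in Aldoart1 it lies in chr4:72850583-72852634 (minus strand). Coding bases and exons, here and below, are numbered in the transcript of each gene with the longest coding sequence. Bases that are coding in that transcript need not be coding in others.
Aldoa: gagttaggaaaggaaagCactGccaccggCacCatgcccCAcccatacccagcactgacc
Aldoart1: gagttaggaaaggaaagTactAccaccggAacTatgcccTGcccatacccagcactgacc

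Triosephosphate isomerase makes both trioses usable and was low beside aldolase. Tpi1 (chr6:124810586-124814296, minus strand) had 984 reads, 31.3 CPM (95% CI, 29.4 to 33.3) and 11.4 CPM per kb (95% CI, 10.7 to 12.1). Aldoa, the enzyme just before it, was 19.6-fold higher per kb (95% counting interval, 18.4 to 20.9), and 21.5-fold higher with the longest transcript. Little of its sequence was shared with other annotated genes. Of the 50-base windows of the annotated Tpi1 transcripts, 4.18% occurred in another gene, none of the 150-base windows did, and the processed pseudogene Tpi-rs11 had 2 reads. Tpi1 and Tpi-rs11 are shown as an example of a copy that 150-base reads can separate, with capitals at the 3 bases that differ (Tpi1, coding bases 589 to 648, exons 4 and 5, chr6:124811927-124812422, minus strand, intron included; Tpi-rs11, within chr6:127183409-127183718, minus strand).
Tpi1: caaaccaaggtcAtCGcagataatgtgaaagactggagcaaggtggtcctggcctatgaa
Tpi-rs11: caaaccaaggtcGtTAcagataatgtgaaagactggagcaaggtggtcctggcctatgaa

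Gapdh, which oxidises glyceraldehyde 3-phosphate and opens the payoff phase, is not among the 10 genes but sits between Tpi1 and Pgk1 in the chain. It had 5776 reads, 184 CPM and 44.5 CPM per kb, so that Aldoa was 5.01-fold higher per kb (95% counting interval, 4.87 to 5.16). Gapdh also has 30 near copies, genes with at least 50% of their own 50-base windows in Gapdh transcripts, and 29 of them were listed, all 29 with reads. Together these copies had 11367 reads, 66.3% of the reads of Gapdh and its copies combined, led by Gm7336 with 1526, Gm5559 with 1202 and Gm12070 with 1111. With the reads of the copies added, the Gapdh level was 546 CPM in place of 184. The stretch below is 150 bases of Gapdh exon 3 (coding bases 110 to 259, chr6:125163279-125163428, minus strand), found without a change in 10 other annotated genes, these 3 among them.
Gapdh: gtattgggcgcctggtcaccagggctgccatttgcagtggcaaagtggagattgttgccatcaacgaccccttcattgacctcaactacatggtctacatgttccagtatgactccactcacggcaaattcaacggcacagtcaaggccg

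Phosphoglycerate kinase makes the first ATP of the payoff phase. Pgk1 (chrX:106187100-106203699, plus strand) had 1920 reads, 61.1 CPM (95% CI, 58.5 to 63.9) and 27.2 CPM per kb (95% CI, 26.1 to 28.5), and the testis isozyme Pgk2 was listed at 0. Of the 10 genes, Pgk1 shared the most sequence with others, 53.9% of its 50-base windows and 49.4% of its 150-base windows. The counts stood unlike those of Gapdh. The near copies Pgk1-rs7 and Gm5537, whose 50-base windows all occur in Pgk1, had 26 and 18 reads, and these 44 reads were 2.24% of the reads of Pgk1 and its copies. How reads that match more than 1 gene were counted is not given in the sources used here, so the Pgk1 level may miss or include such reads. A read of 150 bases from the stretch below cannot be assigned by its sequence, because the stretch is identical in Pgk1, Pgk1-rs7 and Gm5537. It covers coding bases 2 to 151 of Pgk1, from exon 1 into exon 3 (chrX:106187252-106194390, plus strand, introns included).
Pgk1: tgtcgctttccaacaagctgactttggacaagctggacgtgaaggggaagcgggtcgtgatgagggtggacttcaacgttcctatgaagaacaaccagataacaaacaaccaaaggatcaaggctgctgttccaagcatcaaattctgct

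Enolase removes water from 2-phosphoglycerate, which phosphoglycerate mutase supplies. Pgam1, the main mutase gene, had 3018 reads and 48.5 CPM per kb. Eno1 (chr4:150236721-150248879, plus strand), the widely expressed enolase, had 7004 reads, 223 CPM (95% CI, 218 to 228) and 41.5 CPM per kb (95% CI, 40.5 to 42.4). It held 71.8% of the reads of its step (95% CI, 70.9% to 72.6%). The muscle enolase Eno3 held 21.3%, the neuronal enolase Eno2 4.90%, Eno1b 2.07%, and Eno4 was listed at 0. This step changed most with length. Per kb of exon Eno1 held 48.1% and Eno3 44.1%, a ratio of 1.09 (95% counting interval, 1.04 to 1.14), whereas with the longest transcript of each gene the ratio was 2.60. Eno1 shared 26.0% of its 50-base windows with other genes, mainly Eno1b (202 reads) and the processed pseudogene Gm4735 (74 reads).

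Pyruvate kinase makes pyruvate and the last ATP. Pkm (chr9:59656368-59679375, plus strand) had 18366 reads, 585 CPM (95% CI, 576 to 593) and 117 CPM per kb (95% CI, 115 to 119), and Pklr, the liver and red cell gene, was listed at 0. A value per gene does not separate the PKM1 and PKM2 splice forms. In reads Pkm and Aldoa were close, at a ratio of Aldoa to Pkm of 1.11 (95% counting interval, 1.09 to 1.13). But per kb Aldoa was 1.91-fold higher, and 1.74-fold higher with the longest transcript. Pkm shared 25.8% of its 50-base windows with other genes but only 7.22% of its 150-base windows. One of the 150-base stretches, coding bases 1237 to 1386 in exons 9 and 10 of the transcript used (chr9:59675664-59678122, plus strand, intron included), is identical in the processed pseudogene Gm6560, which had 63 reads. Other splice forms of Pkm need not contain this stretch.
Pkm: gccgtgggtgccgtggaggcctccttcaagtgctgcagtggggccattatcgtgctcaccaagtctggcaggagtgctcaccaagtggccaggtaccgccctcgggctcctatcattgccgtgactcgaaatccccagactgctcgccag

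Lactate dehydrogenase A favours the conversion of pyruvate to lactate. Ldha (chr7:46841475-46855627, plus strand) had 6715 reads, 214 CPM (95% CI, 209 to 219) and 64.6 CPM per kb (95% CI, 63.1 to 66.2). It held 99.1% of the reads of its step (95% CI, 98.8% to 99.3%). Ldhb, the isozyme that favours lactate oxidation, had 59 reads, Ldhc 5 and Ldhal6b 0. For Ldhal6b, 100% of the 50-base and 150-base windows occur in another gene, and the part of read assignment in its 0 was not tested. Per kb, Ldha was 54.0-fold higher than Ldhb (95% counting interval, 41.8 to 69.8), and 81.8-fold higher with the longest transcript. None of the 150-base windows of Ldha occurred in another gene, and the pseudogenes Ldha-ps2 and Gm5987, which share some of its 50-base windows, had 5 reads and 1 read.

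**Figure D2:**
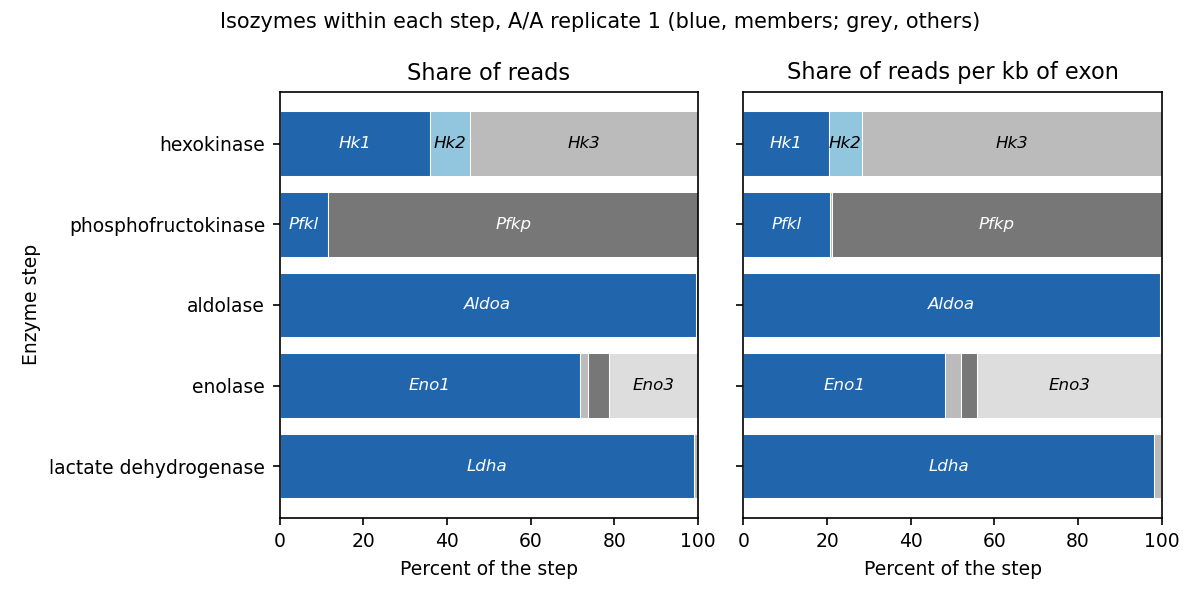
Share of each isozyme in the reads of its enzyme step (left) and in the reads per kb of exon (right), in percent, for the 5 steps where a described gene (blue) and another isozyme (grey) both had reads. Pfkp and Hk3 hold the larger part of their steps on both scales, while Aldoa and Ldha hold at least 98.0% of theirs and Eno1 falls from 71.8% to 48.1%.

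In 2 of these steps, hexokinase and phosphofructokinase, a gene outside the 10 had more reads than the described isozymes. The other isozymes were mostly low. Of the 21 enzymes of the glycolytic steps outside the 10 genes, 8 were listed at 0, among them Hkdc1, Gapdhs, Pgk2, Eno4, Pklr and Ldhal6b, and the 5 with the most reads were Pfkp, Gapdh, Hk3, Pgam1 and Eno3.

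The order of the 10 genes per kb of exon was Aldoa, Pkm, Ldha, Eno1, Pgk1, Gpi1, Tpi1, Pfkl, Hk1 and Hk2, and no neighbours in it had overlapping intervals. All 4 genes of the payoff phase and of lactate production (Pgk1, Eno1, Pkm, Ldha) stood at 27.2 CPM per kb or more. Of the 6 genes of the preparatory phase, Aldoa was above them all and the other 5 (Hk1, Hk2, Gpi1, Pfkl, Tpi1) were at 14.6 CPM per kb or less. This split holds for the 10 genes per kb alone. The preparatory isozymes outside them, Pfkp at 38.1 and Hk3 at 27.1 CPM per kb, stood above Pgk1 or within its interval, and by reads Gpi1, Pfkl and Hk1 also stood above Pgk1. The order was the same with the length of the longest transcript, where the intervals of Tpi1 and Pfkl overlapped, and with the transcript of the longest coding sequence, where those of Pgk1 and Gpi1, of Tpi1 and Pfkl and of Pfkl and Hk1 overlapped. By reads alone 7 of the 10 genes took another rank, and Eno1 and Ldha, Pfkl and Hk1, and Hk1 and Pgk1 had overlapping intervals. The highest gene, Aldoa, was 76.0-fold above the lowest, Hk2, per kb (95% counting interval, 69.9 to 82.8). With the longest transcript or the transcript with the longest coding sequence, this ratio was 132.

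**Figure D3:**
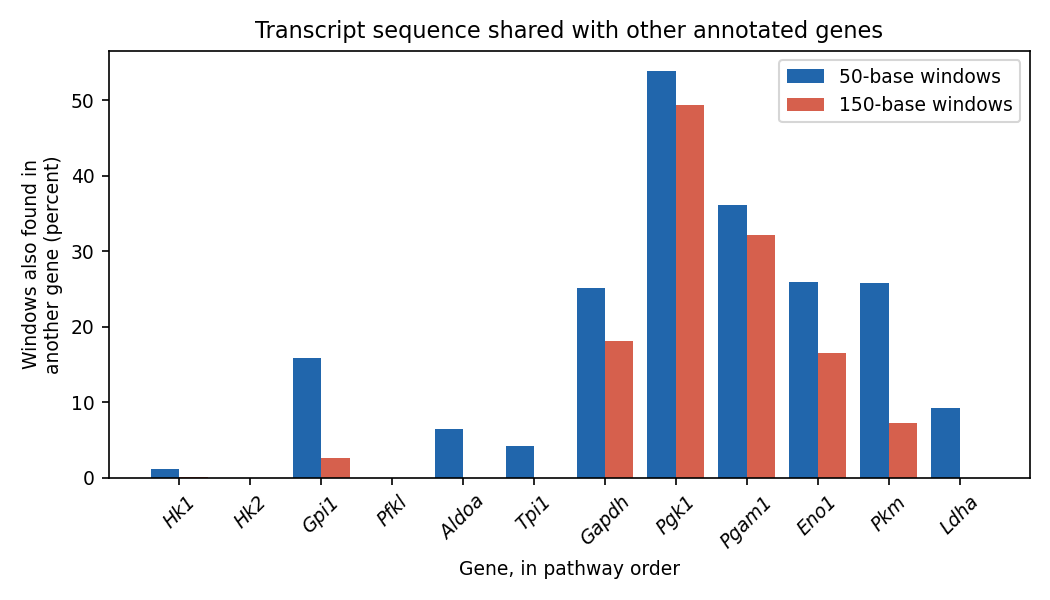
Percent of the 50-base (blue) and 150-base (orange) windows of each gene's annotated transcripts that occur identically in another annotated gene, for the 10 genes, Gapdh and Pgam1, in pathway order. Pgk1 is highest at 53.9% and 49.4%, and Hk1, Hk2 and Pfkl are at 1.22% or less.

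The genes around the pathway were read from lists assembled by hand. Of 16 glucose and lactate transporter genes, 11 had reads. Slc2a6, which encodes the lysosomal hexose transporter GLUT6, was the highest with 385 CPM and 120.0 CPM per kb. Bsg, the chaperone of lactate transporters, had 129 CPM and Slc2a1, the basal glucose transporter GLUT1, 104 CPM, while Slc2a2, Slc2a5, Slc2a9, Slc2a10 and Slc5a1 were listed at 0. Of 16 regulators of glycolysis, 14 had reads. Pfkfb3, whose product makes the activator of phosphofructokinase, had 394 CPM (52.2 CPM per kb). Hif1a, a transcription factor known to induce glycolytic genes, had 245 CPM, and Txnip, which restrains glucose uptake, had 182 CPM. Epas1 and Mlxipl were listed at 0.

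The branch and reverse pathways differed in level. In the pentose phosphate pathway, which leaves glycolysis at glucose 6-phosphate and returns at the level of fructose 6-phosphate and glyceraldehyde 3-phosphate, reads fell on 7 of 9 genes, and the median was 29.9 CPM per kb over these 7 and 27.7 over all 9, beside 20.9 for the 10 glycolytic genes. Taldo1 was at 243 CPM per kb, a level near that of Aldoa at 223. Tkt had 32.8 and G6pdx, the entry enzyme and a main source of NADPH, 60.7 CPM per kb. Gluconeogenesis had reads on 3 of 8 genes, Pck2 (78.0 CPM), Pcx (10.2) and G6pc3 (7.35), while G6pc, G6pc2, Fbp1, Fbp2 and Pck1 were listed at 0. In a list of branches to glycogen, hexosamine, serine and glycerol phosphate 13 of 16 genes had reads (median, 5.29 CPM per kb over these 13 and 4.24 over all 16), and Phgdh, which draws 3-phosphoglycerate into serine synthesis, was the highest at 60.6.

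The mitochondrial routes for pyruvate ran from lower to higher levels than the 10 glycolytic genes per kb. Of 14 genes for pyruvate entry 12 had reads (median, 7.80 CPM per kb over these 12 and 4.75 over all 14), led in reads by Pdhb (88.5 CPM), Pdk3 (73.3) and Mpc1 (69.9). All 18 citric acid cycle genes had reads, at a median of 80.3 CPM and 22.6 CPM per kb, close to the 80.6 CPM and 20.9 CPM per kb of the 10 glycolytic genes. All 28 nuclear genes of the respiratory chain and ATP synthase had reads. Their median was 76.6 CPM, below that of the glycolytic genes, but 39.7 CPM per kb, above it, and 23 of the 28 stood above the glycolytic median per kb. The spread was wider in glycolysis, from 2.93 to 223 CPM per kb, than in the respiratory list, from 5.17 to 179 CPM per kb.

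**Figure D4:**
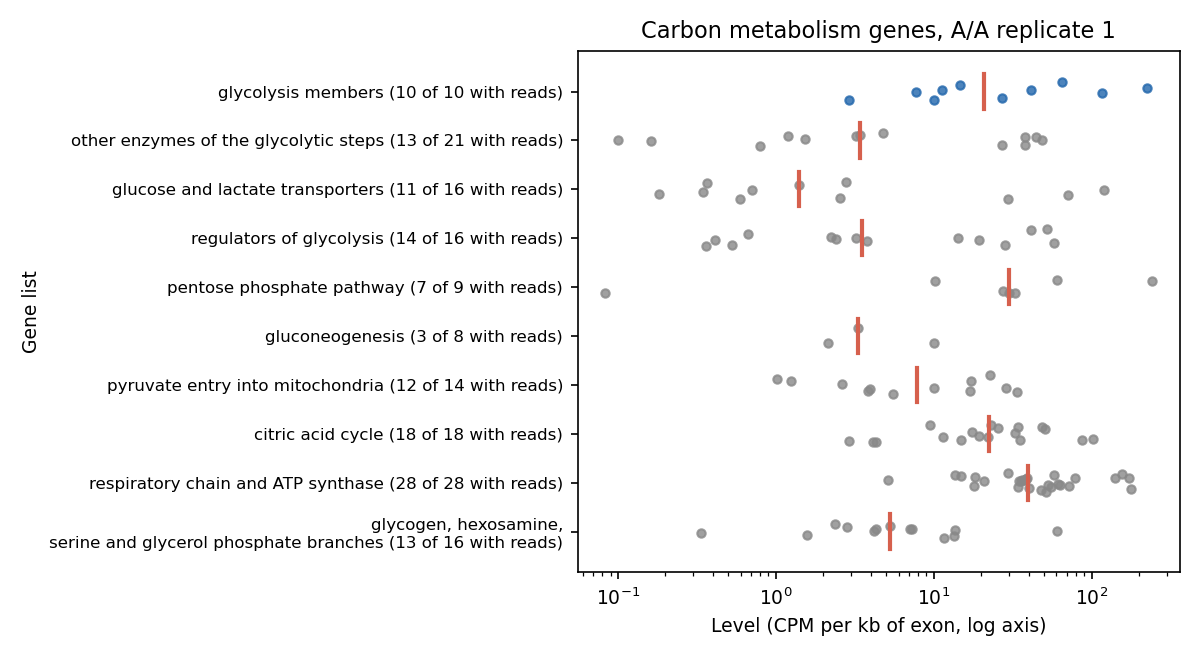
Level of each gene with reads in 10 lists of carbon metabolism in A/A replicate 1, on a log axis of CPM per kb of exon; each point is a gene, spread vertically at random for sight, and orange bars are medians over genes with reads. The 10 glycolytic genes (blue) run from 2.93 to 223, with 3 of 8 gluconeogenesis genes and all 28 respiratory genes having reads.

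Promoters of the 10 genes were read for the letters ACGTG or GCGTG on either strand, the core of the hypoxia response element to which HIF-1 binds, and for CACGTG, an E-box read by MYC and the carbohydrate-response factors. CACGTG holds ACGTG, so the matches overlap. In the RefSeq promoters of GRCm38.p6 (250 bases before to 50 after a start), all 10 genes matched, with 17 starts. The core stood in 12 of 17 promoters (70.6%), against 43.8% of all 32851 promoters, and in at least 1 promoter of 8 of the 10 genes, against 46.7% of 27025 genes. Some of the 17 windows overlap (those of neighbouring Eno1 and Aldoa starts), so that matches in them are counted again, and the 10 genes have more starts per gene than the whole table, which gives each more windows to match in. CACGTG stood in 1 of the 17 (5.88%), against 7.15% of all promoters. That promoter was one of Ldha, at chr7:46845554-46845853 on the plus strand, shown because it held the most marked stretches of those described, 5. Capitals mark the matches. Gpi1 and Tpi1 had no match in the window read, and a match is letters only, not a measured site.
Ldha promoter: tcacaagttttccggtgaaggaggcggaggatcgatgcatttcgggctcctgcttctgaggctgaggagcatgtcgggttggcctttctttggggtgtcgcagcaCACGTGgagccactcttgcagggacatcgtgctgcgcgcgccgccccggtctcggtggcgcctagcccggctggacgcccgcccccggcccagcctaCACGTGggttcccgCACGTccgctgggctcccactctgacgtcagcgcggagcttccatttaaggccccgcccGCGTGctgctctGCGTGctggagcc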

How the data were processed

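Sorted mouse pDCs were profiled by mRNA sequencing with 150 bp paired-end reads. The authors deposited 1 normalized signal per gene for A/A replicate 1, without a stated unit. The submitters' processing notes name HISAT2, StringTie, mm8 and mm10, with no role or version, and the study compared genotypes with DESeq2. Of the deposited values above 0, 100% were whole multiples (tolerance 0.001) of 1.19, and division by this step gave whole numbers, taken as reads. The recovery was also run on 3 simulated libraries of 52550 genes. In each of them 1 gene was set to 1 read, so the smallest value was the step by construction and the recovery could not fail. Libraries without such a gene were not simulated. The planned design assumed no counts, and with 1 library no count test could be run.

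Of the gene identifiers, 99.7% matched GENCODE M21, which gave exon lengths, transcripts and coding bases, and 9 of the 10 genes had identical coordinates there (Aldoa did not). Intervals were Wilson for levels and Clopper-Pearson for shares of a step, at 95%. A ratio of the reads of a pair of genes had an interval from the binomial share of the pair. Windows were compared letter by letter between annotated transcripts of different genes. No genome sequence was used, so unannotated copies were not searched, and the planned protein comparison was not run. The members and gene lists were chosen with earlier results of these data known. Genes named were drawn from the 10 members, the enzymes of their steps and near copies. Within a list they were drawn from the 3 genes with the most reads and those at or under 3 reads. From some lists only part of these genes, or none, were named. Siglech, named beside Fscn1, was not among the 3 pDC markers with the most reads. Genes chosen after their values were seen were Gm26762, Gm6560, Tpi-rs11, Ldha-ps2, Gm5987 and Aldoart1. Alternatives were other lengths, other sets of ranked genes, a pseudocount of 0.1 in place of 1 for log2 levels, and added reads of genes with shared sequence. Python 3.11.15, numpy 2.4.6, scipy 1.17.1, pandas 2.3.3 and matplotlib 3.10.9 were used.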

Additional observations from a re-analysis of the deposited data

Results flagged for a closer look

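The values here stand outside the 10 genes described and were above the limit of 3 reads that a count of 0 allows. No control library was analysed here. Hk3, at 99.7 CPM, and Pfkp, at 511 CPM, were singled out because each had more reads than any of the 10 genes at its step. The near copies of Gapdh had 11367 reads, those of Pgk1 had 44 and that of Eno1 (Gm4735, with Eno1b counted as an isozyme) had 74. Whether these reads came from the copies or from the parent genes was not tested.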

How the results depend on the processing

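No paired analysis was possible because only A/A replicate 1 was read. For the same reason no fit between genotypes, no left-out replicate and no replicate block could be had, and the planned comparison of protein sequences was not run. The median percentile of the 10 genes, 87.3, was 95.7 among all listed genes, 84.4 among genes with at least 10 reads, 82.0 among protein-coding genes with reads and 86.2 per kb. The first rises and the second falls by construction. Their share of all reads, 0.201%, was 0.222% without the 10 genes with the most reads. Ordered per kb of exon, of the longest transcript or of the transcript with the longest coding sequence (these last 2 chosen after seeing the data), 7 of the 10 took another rank than by CPM. Per kb the share of the hexokinase step held by Hk1 and Hk2 went from 45.6% to 28.3%, that of Pfkl from 11.6% to 20.8%, that of Eno1 from 71.8% to 48.1% and that of Ldha from 99.1% to 98.0%. The share of Aldoa moved by less than counting error. Those of Pgk1 and Pkm stayed at 100% by construction, because Pgk2 and Pklr had 0 reads. Adding near-copy reads, also chosen after seeing the data, raised only Eno1 and Pgk1, with Eno1b kept apart as an isozyme. Neither moved beyond its counting error, but this sum cannot show reads left uncounted because they match more than 1 gene. The other genes of the 10 had no near copy by the 50% rule, so their levels could not move. With the reads of Eno1b added too, Eno1 went from 223 to 232 CPM, above its interval. Adding the reads of all genes with a shared 50-base window moved 5 of the 10 levels, up to 75.2-fold for Ldha, which adds all reads of each such gene however short the shared stretch. With the longest transcript all 10 levels per kb rose by construction, since it is never longer than all exons together. The rise was up to 2.65-fold and passed the counting interval for 9 of the 10. The depth limit is set by Hk2, the gene of the 10 with the fewest reads, 550.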
